A study of Homo sapiens with 32 samples.

Results

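Exon arrays report some of their gene-level values under several gene names at once, and 1788 of the 16309 transcript clusters of the Human Exon 1.0 ST Array used here were of this kind. A transcript cluster is the array's unit for a gene locus, and a cluster was taken as a member when its symbol annotation held at least 2 symbols and none of them named a microRNA or a small nucleolar or Cajal body RNA. Of the rest, 13482 clusters had 1 symbol, 860 had none and 179 had several with such a small RNA among them. The members were read on 8 arrays of LNCaP, an established prostate cancer cell line derived from a lymph node metastasis, which depends on androgen for growth. The 4 R1881 arrays came from cells kept for 72 h in medium without steroids and then given the synthetic androgen R1881 at 10 nM for 24 h. The 4 steroid-deplete arrays came from the same line in RPMI-1640 medium with charcoal-stripped serum and no R1881. Both groups are 1 cell line, and no other genotype or agent was named for either. The question was which multi-symbol clusters differed between the treatments, and which of the genes named in each of them carried the difference.

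Steroid hormones act through receptors that are transcription factors, which Hsp90 and its co-chaperones hold ready until hormone binds. Hormone-bound steroid receptors bind DNA at response elements, inverted repeats of a short motif, in enhancers and promoters. In luminal prostate epithelium androgens raise the expression of kallikreins, and they are inactivated by glucuronidation. A cluster gains several names for unlike reasons: genes overlap or lie side by side, paralogues and pseudogenes share sequence, or a transcript was matched to a second locus.

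The promoters of a few members show how close the genes under a shared name can lie. CENPN encodes a kinetochore protein that binds the centromeric nucleosome, and its neighbour CMC2 encodes a factor for assembly of cytochrome c oxidase. The annotated starts of this pair lie 329 bases apart on opposite strands, so that both promoters read the same DNA in opposite directions. FAM216A and GPN3 are set up in the same way, with starts 124 bases apart. FKBP5, named in the cluster with the largest change, is shown by 1 of its 2 windows. The windows run from 250 bases before to 50 bases after a start, 5′ to 3′ on the gene's own strand, and come from RefSeq on GRCh38.p14. Capitals mark the bases shared by both windows of a pair, 172 for CENPN and CMC2 and 223 for FAM216A and GPN3. In FKBP5 they mark a match to the steroid response element motif AGAACA, which begins at the annotated start base. The windows are CENPN at chr16:81006964-81007263 (+ strand), CMC2 at chr16:81006836-81007135 (- strand), FAM216A at chr12:110468595-110468894 (+ strand), GPN3 at chr12:110468672-110468971 (- strand) and FKBP5 at chr6:35728534-35728833 (- strand).
CENPN: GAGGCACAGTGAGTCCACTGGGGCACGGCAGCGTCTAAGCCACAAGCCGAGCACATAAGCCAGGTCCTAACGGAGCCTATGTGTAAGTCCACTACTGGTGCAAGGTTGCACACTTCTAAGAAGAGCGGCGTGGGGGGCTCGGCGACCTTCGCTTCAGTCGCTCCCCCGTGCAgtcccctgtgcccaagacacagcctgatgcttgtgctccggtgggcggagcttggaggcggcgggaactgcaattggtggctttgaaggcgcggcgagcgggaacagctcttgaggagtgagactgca
CMC2: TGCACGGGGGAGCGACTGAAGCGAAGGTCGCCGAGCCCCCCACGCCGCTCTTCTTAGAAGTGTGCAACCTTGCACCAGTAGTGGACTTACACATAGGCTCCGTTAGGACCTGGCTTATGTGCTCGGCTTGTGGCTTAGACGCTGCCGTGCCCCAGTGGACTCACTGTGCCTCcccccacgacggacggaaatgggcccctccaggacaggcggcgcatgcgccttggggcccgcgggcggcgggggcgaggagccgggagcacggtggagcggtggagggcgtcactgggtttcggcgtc
FAM216A: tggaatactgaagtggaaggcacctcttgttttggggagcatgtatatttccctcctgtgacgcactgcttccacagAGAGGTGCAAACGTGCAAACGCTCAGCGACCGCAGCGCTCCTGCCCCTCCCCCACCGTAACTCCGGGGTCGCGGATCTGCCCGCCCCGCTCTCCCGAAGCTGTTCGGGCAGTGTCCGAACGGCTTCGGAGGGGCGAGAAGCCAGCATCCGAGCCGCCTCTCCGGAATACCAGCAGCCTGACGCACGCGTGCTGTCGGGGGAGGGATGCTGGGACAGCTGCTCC
GPN3: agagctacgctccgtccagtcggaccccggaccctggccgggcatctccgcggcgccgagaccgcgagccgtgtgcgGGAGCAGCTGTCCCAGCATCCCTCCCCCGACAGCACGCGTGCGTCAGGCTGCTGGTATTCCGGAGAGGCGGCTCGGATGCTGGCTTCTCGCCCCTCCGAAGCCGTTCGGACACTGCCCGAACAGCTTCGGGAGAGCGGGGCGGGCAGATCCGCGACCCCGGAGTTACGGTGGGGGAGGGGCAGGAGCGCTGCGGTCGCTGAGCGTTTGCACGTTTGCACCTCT
FKBP5: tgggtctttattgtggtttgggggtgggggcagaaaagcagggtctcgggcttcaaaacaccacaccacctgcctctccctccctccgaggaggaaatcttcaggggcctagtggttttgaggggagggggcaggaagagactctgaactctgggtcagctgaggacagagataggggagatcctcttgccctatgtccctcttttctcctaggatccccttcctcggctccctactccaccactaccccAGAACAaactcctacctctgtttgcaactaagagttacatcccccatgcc
None of the 4 windows of the head-to-head pairs held AGAACA or its complement TGTTCT, and the FKBP5 window shown held it 1 time. The second window of FKBP5 (GC 76.0%) and those of CMC2 and GPN3 held none. Searched on both strands, this 6-base motif was in 14.8% of the 35116 windows of the table, and the inverted repeat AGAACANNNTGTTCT, which contains it at both ends, was in 1 window. GC content was 61.7% for CENPN, 67.3% for CMC2, 63.7% for FAM216A, 70.3% for GPN3 and 55.7% for FKBP5, with a median of 58.7% over all windows. A match is a description of letters in a window and not a binding site.

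Most members carried few names. Of the 1788, 1560 had 2 symbols, 171 had 3 and 57 had 4 or more, up to 15. Together they listed 3344 distinct genes, of which 1121 were listed in more than 1 cluster. By current RefSeq positions the listed genes were neighbours within 100 kb in 695 clusters, overlapped in 568, lay on different chromosomes in 281 and lay far apart on 1 chromosome in 229, while in 15 the symbols had since become names of a single gene. By the symbols alone, 397 clusters joined names with a shared stem such as SLC2A3 and SLC2A14, 171 joined a gene to a non-coding or placeholder name such as TIPARP-AS1, 28 held a readthrough name and 1192 joined unrelated names.

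The arrays separated by treatment. The first principal component of all clusters took 73.3% of the variance and had all 4 R1881 arrays on one side, and on the next component R1881 replicate 4 (17.6) and steroid-deplete replicate 1 (13.5) stood away from the rest (-12.5 to 0.0134). Median log2 values of the arrays were 6.22 to 6.31 with R1881 and 6.33 to 6.40 in steroid-deplete medium. The kallikrein genes KLK3 and KLK2, standard reporters of androgen action and no members, averaged 12.24 and 11.20 with R1881 and 10.41 and 8.67 in steroid-deplete medium. Of the markers of luminal prostate cells, KLK3, KLK2 and HOXB13 lay at the 97.6 percentile of all clusters or above and FOLH1/FOLH1B at the 92.0 percentile. KRT8 was listed only in 3 multi-symbol clusters, at the 18.5, 30.7 and 41.8 percentiles, which are no reading of KRT8. Its 3 exon-level probe sets with no other symbol lay outside these clusters. They averaged 5.35, 7.37 and 8.19 with R1881 and 5.33, 7.74 and 8.35 in steroid-deplete medium. The basal markers KRT5 and KRT14, also in multi-symbol clusters, lay at the 32.3 and 42.1 percentiles. Stromal markers ran from DCN at 5.6 through ACTA2/FAS-AS1 at 34.3 to COL1A1 at the 54.7 percentile, with COL1A2 in clusters at 3.0 and 42.0. Leukocyte and endothelial markers lay between the 1.2 and 26.6 percentiles. KRT18 and TP63 were not analysed here.

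A cluster was called when limma's moderated test gave an adjusted p below 0.005 over all 16309 clusters and the change was at least 2-fold. With R1881, 31 members (1.73%) were called higher and 26 (1.45%) lower. Over all clusters the shares were 1.94% higher and 2.04% lower, so that the members were called at rates near the background. Their median log2 change was -0.006 against -0.003 for all clusters, and their median level was 6.16 against 6.33. The split of the calls by direction moved with the processing: centring the arrays gave 37 higher and 20 lower, and the Iter-PLIER values, a second summary of the same probes on another scale, gave 40 higher and 82 lower. At an adjusted p below 0.05 alone, 195 members were higher and 323 lower, beside 10.5% and 19.8% of all clusters. The values of both treatments did not overlap in 507 members (28.4%), against a background of 29.8%. The arrays measured bulk RNA, in which fewer cells expressing a gene and less RNA per cell cannot be told apart. The labels do not say that replicates were separate cultures, so p-values measure the spread between these arrays.

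Placement and kind of name were described by the same counts. Over all clusters 1.94% were called higher and 2.04% lower. Clusters whose genes lie on different chromosomes had 8 called higher (2.85%) and 3 lower (1.07%) of 281. Neighbours had 13 (1.87%) and 10 (1.44%) of 695, and overlapping genes 10 (1.76%) and 8 (1.41%) of 568. Distant genes of a single chromosome had 0 and 5 (2.18%) of 229. By name, 7 were called higher (1.76%) and 6 lower (1.51%) of 397 clusters with a shared stem. Clusters with a non-coding partner had 2 (1.17%) and 5 (2.92%) of 171, and those with unrelated names 22 (1.85%) and 15 (1.26%) of 1192. No readthrough cluster was called among 28. Differences between these kinds of cluster were not tested, and none is read from the counts.

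The largest change of any member was in FKBP5/LOC285847. FKBP5 encodes FKBP51, an immunophilin and Hsp90 co-chaperone of steroid receptor complexes. The cluster read 12.10, 12.01, 11.88 and 11.81 on the log2 scale with R1881, against 7.84, 7.90, 8.03 and 7.99 in steroid-deplete medium. Every R1881 array lay far above every steroid-deplete array, and the change was 4.01 (SE 0.09, limma adjusted p = 2.8e-12). EAF2/HCG11/NORAD, named for the partner of an RNA polymerase elongation factor and 2 non-coding loci, read 8.92, 9.36, 8.85 and 8.77 with R1881 and 5.19, 5.35, 5.75 and 5.23 in steroid-deplete medium. Its change of 3.59 (SE 0.14, limma adjusted p = 5.0e-10) also left a wide gap between the treatments. SLC2A3/SLC2A14, named for the glucose transporters GLUT3 and GLUT14, read 8.02, 7.65, 7.96 and 7.69 with R1881, against 4.46, 4.32, 4.31 and 4.28 in steroid-deplete medium. The steroid-deplete arrays of this cluster were tightly grouped at a low level, and the change was 3.49 (SE 0.10, limma adjusted p = 1.8e-11).

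Smaller rises followed. TIPARP, an ADP-ribosyltransferase that restrains the aryl hydrocarbon receptor, shares its cluster with an antisense name: TIPARP/TIPARP-AS1 read 8.77, 8.90, 8.81 and 8.55 with R1881 and 6.26, 6.48, 6.57 and 6.62 in steroid-deplete medium (change 2.27, SE 0.10, adjusted p = 1.5e-09). TBRG1/SIAE, which joins a growth regulator and a sialic acid esterase, read 10.52, 10.68, 10.62 and 10.52 with R1881, against 8.48, 8.62, 8.55 and 8.57 in steroid-deplete medium (2.03, SE 0.08, adjusted p = 3.8e-10). In both clusters the groups were more than 1.5 log2 units apart at their closest. IQUB/CARF, whose genes lie on different chromosomes, read 5.38, 5.48, 5.23 and 4.70 with R1881 and 3.10, 3.05, 3.43 and 3.12 in steroid-deplete medium (2.02, SE 0.15, adjusted p = 2.0e-07). R1881 replicate 4 was its lowest R1881 value and still lay above all steroid-deplete arrays. PEX10/RER1, a peroxisome biogenesis gene and a Golgi retrieval receptor, averaged 9.60 ± 0.17 with R1881 and 7.85 ± 0.06 in steroid-deplete medium (SD, n = 4 each; change 1.75). Next came ERI2/REXO5, a pair of RNA exonuclease genes (1.64), NSMAF/RPS26, a neutral sphingomyelinase partner with a ribosomal protein (1.54), and ARFGAP3/RPL5/PACSIN2, led by a GTPase activator of the Golgi (1.42), each with non-overlapping groups.

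**Figure D1:**
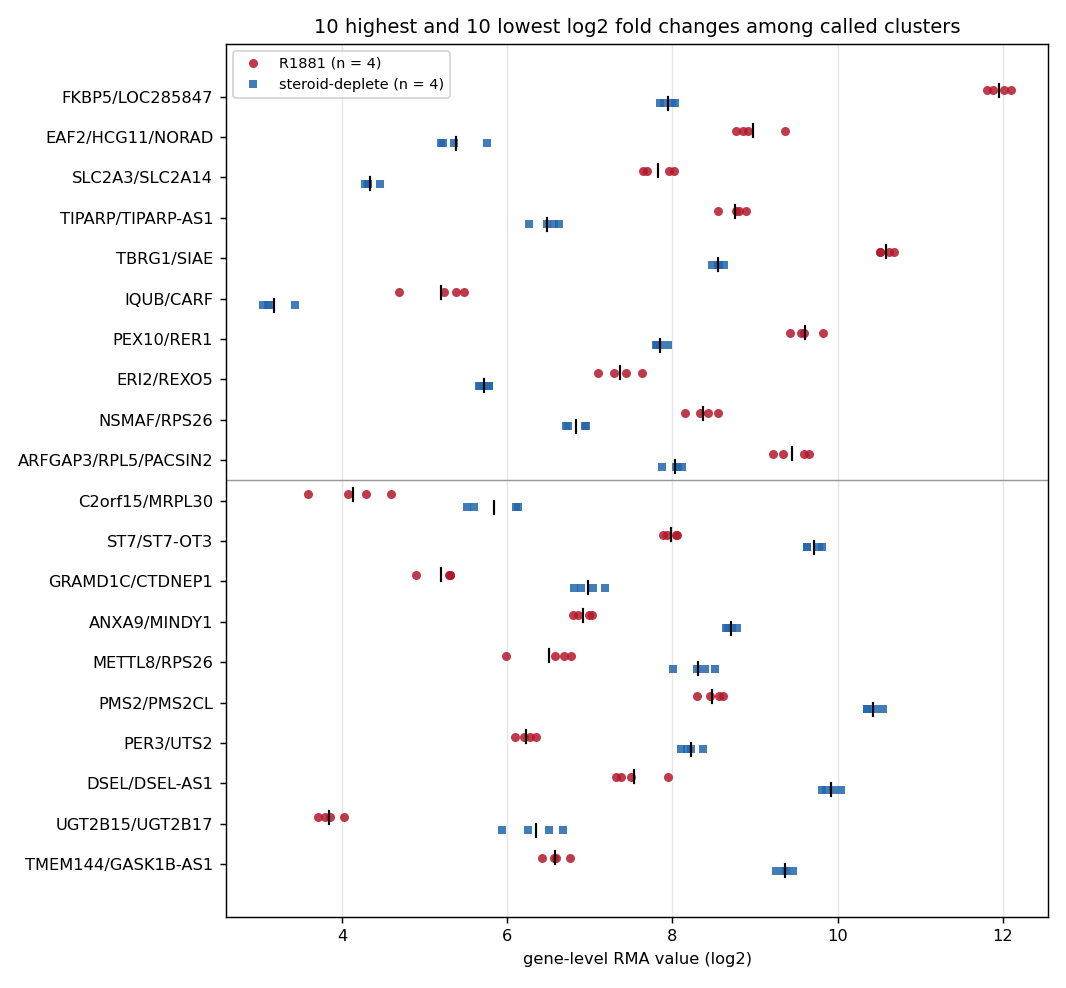
Gene-level log2 RMA values of the 10 called multi-symbol clusters with the largest rise and the 10 with the largest fall, for 4 R1881 arrays (circles) and 4 steroid-deplete arrays (squares), with bars at the group means. In every row the circles and squares do not overlap, and FKBP5/LOC285847 shows the widest gap (4.01).

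Among the falls, TMEM144/GASK1B-AS1 led. TMEM144 encodes a membrane protein and the other name is an antisense transcript of a nearby gene. The cluster read 6.58, 6.57, 6.76 and 6.42 with R1881, against 9.25, 9.38, 9.45 and 9.35 in steroid-deplete medium, and fell by 2.78 on the log2 scale (SE 0.09, limma adjusted p = 7.8e-11). All R1881 arrays lay more than 2 log2 units below all steroid-deplete arrays. UGT2B15/UGT2B17, whose enzymes attach glucuronic acid to androgens, read 3.80, 3.71, 4.02 and 3.86 with R1881 and 6.51, 5.94, 6.68 and 6.25 in steroid-deplete medium. With a spread of 0.32 (SD) among the steroid-deplete arrays the groups stayed well apart, and the change was -2.50 (SE 0.14, limma adjusted p = 9.8e-09). DSEL/DSEL-AS1, for a relative of dermatan sulfate epimerase, read 7.37, 7.50, 7.94 and 7.32 with R1881, against 9.95, 10.04, 9.86 and 9.81 in steroid-deplete medium (-2.38, SE 0.12, adjusted p = 5.7e-09). Again no value of one treatment reached those of the other.

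The circadian clock gene PER3 shares a cluster with UTS2, which encodes the peptide urotensin 2. PER3/UTS2 read 6.35, 6.20, 6.28 and 6.09 with R1881 and 8.11, 8.37, 8.18 and 8.22 in steroid-deplete medium (-1.99, SE 0.09, adjusted p = 1.4e-09). PMS2/PMS2CL, a DNA mismatch repair gene and its pseudogene copy, read 8.61, 8.56, 8.45 and 8.30 with R1881, against 10.36, 10.36, 10.54 and 10.45 in steroid-deplete medium (-1.95, SE 0.09, adjusted p = 2.0e-09). Both clusters had spreads of 0.14 (SD) or less in each treatment. METTL8/RPS26 (-1.80), for an RNA methyltransferase, ANXA9/MINDY1 (-1.79), for an annexin and a deubiquitinase, GRAMD1C/CTDNEP1 (-1.78), for a sterol transfer protein and a nuclear envelope phosphatase, ST7/ST7-OT3 (-1.73) and C2orf15/MRPL30 (-1.70) completed the 10 largest falls. Their R1881 and steroid-deplete values did not overlap in any case. RPS26 stood in a risen cluster (NSMAF/RPS26) and in a fallen one (METTL8/RPS26), and its only probe set with no other symbol changed by 0.19 (limma adjusted p = 0.75 over all probe sets).

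Familiar prostate genes were among the other called members, named here after their values were seen. KLK4/KLKP1, a kallikrein and a kallikrein pseudogene, read 9.42, 9.44, 9.45 and 9.49 with R1881, against 8.18, 8.39, 8.24 and 8.40 in steroid-deplete medium (change 1.15, adjusted p = 1.2e-07). The R1881 arrays of this cluster were close together (SD 0.03). AZGP1/AZGP1P1, for the secreted zinc-alpha-2-glycoprotein, averaged 8.76 ± 0.05 with R1881 and 7.54 ± 0.18 in steroid-deplete medium (SD, n = 4 each; change 1.22). FOLH1/FOLH1B, for prostate-specific membrane antigen and a distant copy, moved the other way: 7.88, 8.29, 8.33 and 7.88 with R1881, against 9.63, 9.75, 9.68 and 9.61 in steroid-deplete medium (-1.57, adjusted p = 1.5e-07). The SD of the steroid-deplete arrays was 0.06, while R1881 replicates 1 and 4 were lower than replicates 2 and 3.

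Probe sets that carry a single symbol were then used to ask which listed gene moved. A gene's value on an array was the median of its exon-level probe sets, at least 4 of them, and 16201 genes of the array could be measured in this way. The probes overlap those of the gene-level value, so this resolves the cluster's change and does not support it independently. Of the 3344 listed genes 2360 were measured, and 49 (2.08%) were called higher and 54 (2.29%) lower, against 2.10% and 2.64% of all measured genes. Probe sets are numbered along the array's design, and those numbered between a cluster and the next were taken as lying in it. By this count 1436 clusters (80.3%) held single-symbol probe sets of exactly 1 listed gene, 280 of several and 72 of none. The share with 1 gene was 89.3% for clusters that joined different chromosomes, 87.7% for overlapping genes, 72.8% for neighbours and 72.5% for distant genes.

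The 57 called clusters resolved into 5 groups. In 25 of them 1 gene was called in the cluster's direction while another listed gene was measured and not called (18 higher, 7 lower), and in 23 of these the called gene's probe sets lay in the cluster. In 15, 1 gene was called and no other could be measured (7 higher, 8 lower). In 2 clusters, both lower, at least 2 genes were called. In 13 no gene reached the call (6 higher, 7 lower), and in 2 no gene could be measured. A gene past the threshold beside one that missed it is not shown to differ from it, and that difference was tested separately.

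FKBP5 gave a plain case. Its 15 probe sets, 14 of them called higher on their own, put the gene at 11.90, 12.01, 11.75 and 11.67 with R1881, against 7.66, 7.89, 7.77 and 7.82 in steroid-deplete medium (4.04, SE 0.13, limma adjusted p = 6.9e-10). LOC285847, with 13 probe sets in the same cluster and on the same strand, read 5.43, 5.38, 5.73 and 5.81 with R1881 and 5.23, 4.92, 5.03 and 5.37 in steroid-deplete medium (0.45, SE 0.15, adjusted p = 0.0501). Its groups differed by no more than a fraction of the FKBP5 change and none of its probe sets was called. EAF2 rose by 3.42 from 9 probe sets, 6 of them called, all in the cluster, while neither HCG11 nor NORAD had a single-symbol probe set. TIPARP rose by 2.11 from 18 probe sets, 10 of them called, and TIPARP-AS1 had none. TBRG1 rose by 2.18 with 18 of 19 probe sets called.

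**Figure D2:**
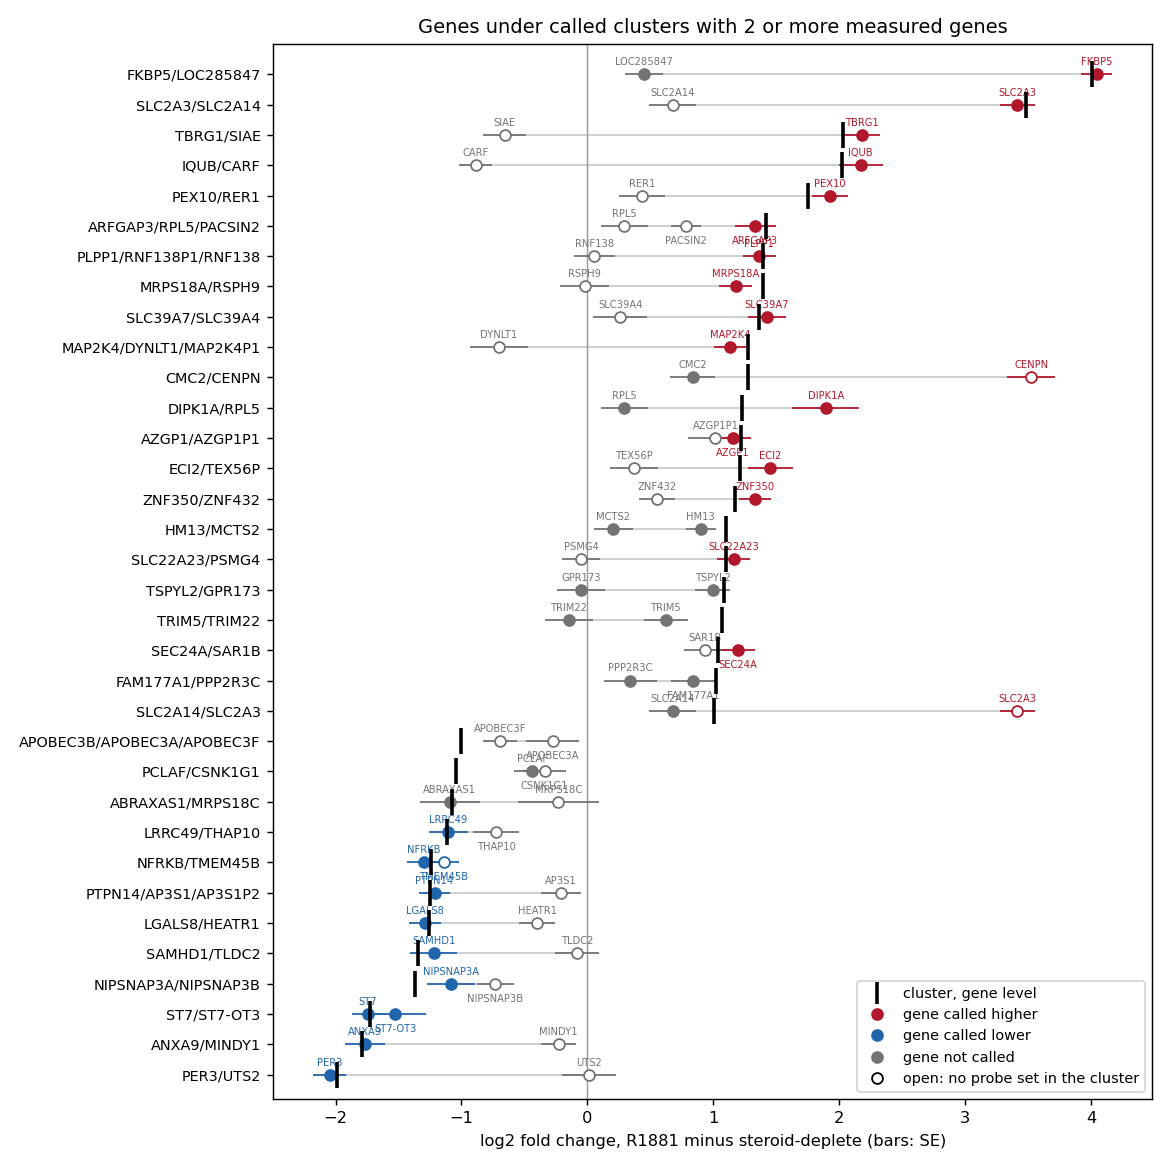
Log2 change, R1881 minus steroid-deplete, of the 34 called clusters with at least 2 measured genes (bars) and of each measured gene (circles, with SE), red for genes called higher, blue for genes called lower and grey for genes not called. Open circles are genes with no probe set in the cluster; in most rows 1 coloured circle sits near the end of the bar and a grey one closer to 0.

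Called genes listed beside uncalled ones were also seen lower down the list. PEX10 rose by 1.93 (8 of 9 probe sets called), while RER1 read 0.43 (adjusted p = 0.13). NSMAF rose by 1.30 with 18 of 29 probe sets called. ARFGAP3 rose by 1.33, and PACSIN2, an endocytosis protein listed in the same cluster, read 0.78 (adjusted p = 3.7e-04), short of 2-fold. SLC39A7, a zinc transporter of the secretory pathway, rose by 1.42 and SLC39A4, its paralogue at the plasma membrane, read 0.26. MAP2K4, a kinase upstream of JNK, rose by 1.13, while DYNLT1, a dynein light chain, read -0.70 with overlapping groups (limma adjusted p = 0.046). The gene-level cluster of DYNLT1 itself read -0.02. PLPP1, a lipid phosphate phosphatase, rose by 1.36 and RNF138, a ubiquitin ligase on another chromosome, read 0.05. RNF138P1, the third name of that cluster, had 2 probe sets, both in the cluster and both called higher, too few to measure. KLK4 itself rose by 1.35 with 7 of 9 probe sets called, and KLKP1 had 1 probe set, too few to measure. RER1, PACSIN2, SLC39A4, DYNLT1 and RNF138 had no single-symbol probe set in these clusters and were only listed there by name.

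Genes of the fallen clusters resolved likewise. TMEM144 fell by 2.92 with 20 of 22 probe sets called, DSEL fell by 2.12 with 8 of 9 and PMS2 fell by 1.89 with 6 of 7. PER3 read 6.46, 6.08, 6.44 and 6.20 with R1881, against 8.24, 8.30, 8.45 and 8.38 in steroid-deplete medium, with 26 of 31 probe sets called (-2.05, adjusted p = 2.0e-07), while UTS2 read 0.01 (adjusted p = 0.98). ANXA9 fell by 1.77 (10 of 14 probe sets) and MINDY1 read -0.23. GRAMD1C fell by 1.55 with 11 of 26. METTL8 fell by 1.88 with 10 of 15, though only 7 of the 15 lay in the cluster. LGALS8, a galectin, fell by 1.29 and HEATR1, a ribosome biogenesis factor, read -0.40. SAMHD1, which degrades deoxynucleotides, fell by 1.22 and PTPN14, a tyrosine phosphatase, by 1.21. Their partners TLDC2 and AP3S1 read -0.08 and -0.21. UTS2, MINDY1, HEATR1, TLDC2 and AP3S1 had no single-symbol probe set in these clusters and were only listed there by name.

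Both genes were called in a pair of fallen clusters. ST7, with 18 of 23 probe sets called, fell by 1.74, and ST7-OT3, a transcript overlapping it, fell by 1.52 (adjusted p = 6.4e-04) with none of its 6 probe sets called alone. Whether the ST7-OT3 probe sets also read RNA of ST7 was not tested. ST7/ST7-OT3 as a whole read 8.06, 8.04, 7.94 and 7.89 with R1881, against 9.63, 9.81, 9.77 and 9.63 in steroid-deplete medium. NFRKB, a chromatin remodelling subunit, fell by 1.30 and its neighbour TMEM45B by 1.14 with 8 of 9 probe sets called, and the TMEM45B probe sets lay outside the numbers of the cluster.

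Some clusters did not resolve. ERI2/REXO5 changed by 1.64, while ERI2 read 0.66 (adjusted p = 2.2e-03) from 19 probe sets, none of them in the cluster, and REXO5 had none. HM13, a signal peptide peptidase, read 0.90 from 23 probe sets (adjusted p = 1.3e-04) in HM13/MCTS2, a cluster at 1.10. C2orf15 had 2 single-symbol probe sets, both at -0.97 or -0.96 and not called, and MRPL30, of the mitochondrial ribosome, read -0.46. No gene of UGT2B15/UGT2B17 had 4 such probe sets. One UGT2B15 probe set changed by -3.34 (adjusted p = 1.0e-03) and the other, dim in both treatments (1.65 with R1881 and 1.99 in steroid-deplete medium), by -0.34. For UGT2B17 the values were -2.43 (adjusted p = 8.4e-05) and -0.36, again with the second probe set dim (2.40 with R1881 and 2.76 in steroid-deplete medium). A probe set of UGT2B28, a related enzyme that is no member of that cluster, changed the other way, by 2.30 (adjusted p = 8.0e-04). Its other probe set, dimmer (3.69 with R1881 and 2.44 in steroid-deplete medium), changed by 1.25 and was not called (limma adjusted p = 0.12). These genes are related in sequence, and signal from shared probes cannot be assigned to any single one of them.

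Differences between genes of the same cluster were tested on all 1043 pairs of measured genes that share a multi-symbol cluster. For each array the value of 1 gene was subtracted from that of the other, and the R1881 differences were compared with the steroid-deplete ones. Of the 1025 pairs in the members, 52 (5.07%) changed unequally at an adjusted p below 0.005 and a difference of at least 1 log2 unit, beside 5.27% of all 1043, a set made up almost wholly of these pairs, so that the shares are no comparison. In 45 of these pairs exactly 1 gene was called, in 7 neither was and in 0 both were. The changes had opposite signs in 35, and in 9 of those both genes had an adjusted p below 0.05. Both genes had probe sets in the cluster in 7 pairs, so for most pairs the contrast set a gene in the cluster against one listed by name.

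**Figure D3:**
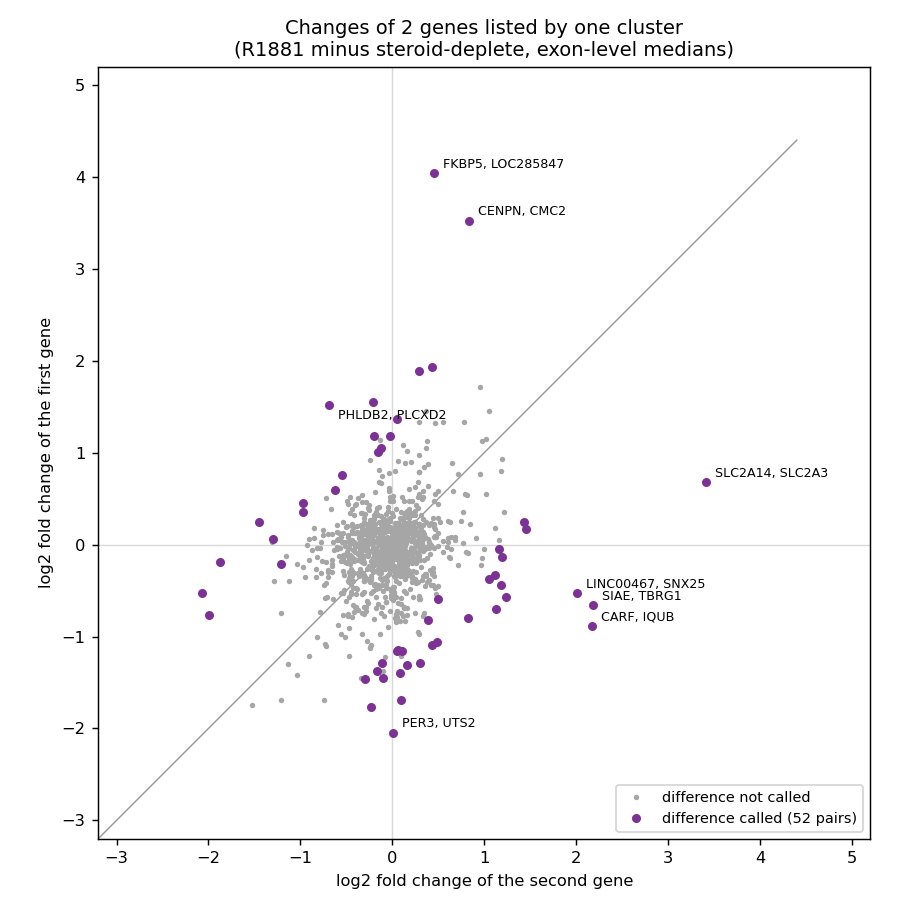
Log2 changes, R1881 minus steroid-deplete, of the 2 genes of each of 1025 pairs that share a multi-symbol cluster. Purple points are the 52 pairs that changed unequally, grey points the other pairs, and the diagonal marks equal change; the labelled pairs lie farthest from it.

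FKBP5 and LOC285847 differed most. FKBP5 minus LOC285847 was 6.47, 6.63, 6.02 and 5.86 with R1881, against 2.44, 2.97, 2.74 and 2.45 in steroid-deplete medium, a difference of changes of 3.59 (SE 0.22, limma adjusted p = 1.0e-07). SIAE minus TBRG1 was -1.22, -1.67, -1.08 and -1.77 with R1881 and 1.78, 1.35, 1.41 and 1.05 in steroid-deplete medium, so that the sign turned on every array. The difference of changes was -2.84 (SE 0.22, limma adjusted p = 1.1e-06). SIAE, whose 19 probe sets lay outside the cluster, read 8.89, 8.52, 9.11 and 8.29 with R1881, against 9.42, 9.44, 9.32 and 9.26 in steroid-deplete medium (-0.66, adjusted p = 0.0152). The values of SIAE did not overlap, with those of R1881 lower, and its start lies 50875 bases from that of TBRG1 on the opposite strand.

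IQUB and CARF moved apart in the same manner. IQUB, a protein of motile cilia, read 5.78, 5.66, 5.66 and 5.38 with R1881, against 3.27, 3.19, 3.98 and 3.36 in steroid-deplete medium (2.17, adjusted p = 1.6e-06). CARF, a calcium-responsive transcription factor with 0 of its 25 probe sets in the cluster, read 5.39, 5.45, 5.51 and 5.31 with R1881 and 6.23, 6.11, 6.55 and 6.32 in steroid-deplete medium (-0.89, adjusted p = 3.2e-04). Neither gene's groups overlapped, and CARF minus IQUB changed by -3.06 (SE 0.18, adjusted p = 1.0e-07). All 22 single-symbol probe sets in the cluster were those of IQUB.

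The glucose transporter pair stood in 2 called clusters. SLC2A3 read 7.16, 7.05, 7.35 and 7.23 with R1881, against 4.07, 3.83, 3.56 and 3.69 in steroid-deplete medium, from 6 probe sets (3.41, adjusted p = 4.8e-09). SLC2A14 read 4.04, 5.03, 4.39 and 4.52 with R1881 and 3.58, 3.86, 3.95 and 3.89 in steroid-deplete medium, from 12 probe sets (0.68, adjusted p = 0.0217). Its probe sets were split: 3 were called higher, at 3.12, 3.42 and 4.41, and the other 9 lay between -0.27 and 0.72, so that the median stands for the larger share of them. Its lowest R1881 value, of replicate 1, lay just above its highest steroid-deplete value. The second cluster, SLC2A14/SLC2A3, which held only SLC2A14 probe sets, read 4.92, 5.57, 5.10 and 5.57 with R1881, against 4.26, 4.37, 4.15 and 4.36 in steroid-deplete medium (1.00, SE 0.14, adjusted p = 7.4e-05). It fell short of 2-fold without R1881 replicate 2 (0.91) or 4 (0.91) and without steroid-deplete replicate 1 (0.99) or 3 (0.96), and read 4.05 with Iter-PLIER. By these medians SLC2A14 minus SLC2A3 changed by -2.74 (adjusted p = 6.9e-06), with -2.96 to -1.72 over the alternatives. The 2 paralogues are close in sequence, and shared hybridisation was not tested.

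CENPN and CMC2, the head-to-head pair that shares 172 bases of promoter, changed unequally. CENPN read 9.43, 9.63, 9.68 and 8.84 with R1881, against 5.91, 5.61, 5.79 and 6.16 in steroid-deplete medium, with 5 of 6 probe sets called (3.53, SE 0.19, limma adjusted p = 5.1e-08). The uncalled CENPN probe set, lowest by number, read 8.29 with R1881 and 7.98 in steroid-deplete medium, a change of 0.31. The 5 called ones changed by 3.05 to 4.60. From which start the risen CENPN RNA came was not tested. CMC2 read 6.78, 7.52, 7.29 and 7.04 with R1881 and 6.22, 6.37, 6.62 and 6.07 in steroid-deplete medium, with none of 8 probe sets called (0.84, SE 0.18, adjusted p = 4.3e-03). CENPN minus CMC2 was 2.65, 2.11, 2.38 and 1.80 with R1881, against -0.31, -0.76, -0.83 and 0.09 in steroid-deplete medium (2.69, SE 0.24, adjusted p = 5.5e-06). Every R1881 difference exceeded every steroid-deplete one. The cluster CMC2/CENPN held the CMC2 probe sets and none of CENPN, and read 7.64, 8.19, 7.99 and 7.72 with R1881, against 6.49, 6.83, 6.56 and 6.56 in steroid-deplete medium (1.27, adjusted p = 2.8e-06), so that its change was less than that of CENPN and more than that of CMC2.

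**Figure D4:**
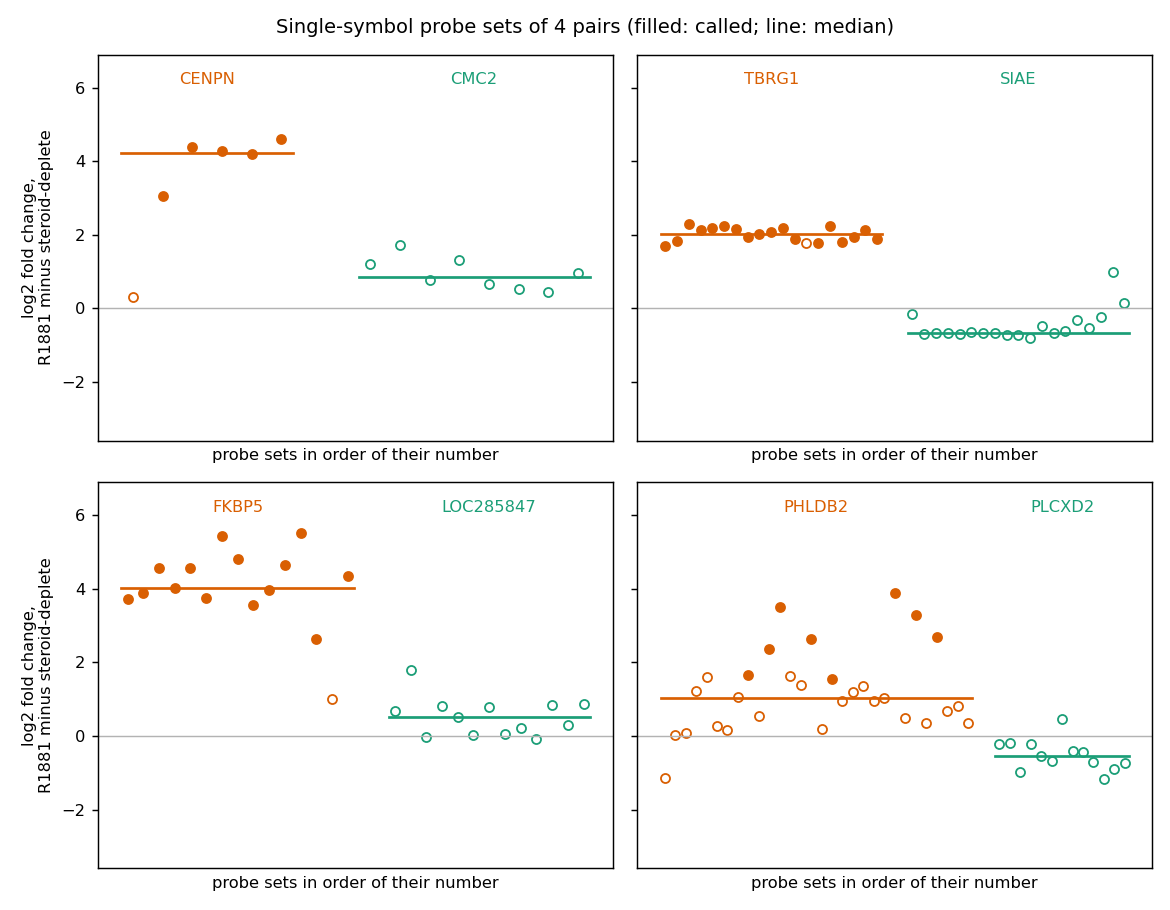
Log2 change of each single-symbol probe set, R1881 minus steroid-deplete, for both genes of 4 pairs, in the order of probe set numbers, filled where the probe set was called, with a line at the median of these changes, which can differ from the change of the per-array median. CENPN, TBRG1, FKBP5 and PHLDB2 hold the filled points; of 8 CMC2 and 13 LOC285847 probe sets none is filled.

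FAM216A and GPN3, which share 223 bases, lay under a cluster that was not called (-0.55, adjusted p = 9.5e-03); they were picked here after their values were seen. FAM216A, with 10 probe sets in the cluster, fell by 1.06 (adjusted p = 2.4e-03), and GPN3, a GTPase in assembly of RNA polymerase II, read 0.48 (adjusted p = 0.0213). FAM216A minus GPN3 was -2.59, -2.85, -2.94 and -3.06 with R1881, against -1.69, -1.48, -1.31 and -0.80 in steroid-deplete medium (-1.54, SE 0.21, adjusted p = 2.3e-04), with no overlap. Of the 70 pairs with head-to-head starts within 1000 bases, these 2 were called (2.86%), against 14 of 273 on the same strand (5.13%), 19 of 259 on opposite strands farther apart (7.34%) 9 of 94 on different chromosomes (9.57%) and 8 of 329 for which no start was given (2.43%). Across pairs, the changes of both genes correlated with Pearson's r = 0.49 for head-to-head starts, 0.30 for the same strand, 0.14 for other opposite strands, -0.04 for different chromosomes and 0.25 where no start was given. This is a description across gene pairs, which share arrays and some genes and are not independent.

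The remaining pairs with the widest differences were LINC00467 with SNX25, PHLDB2 with PLCXD2, and PER3 with UTS2. SNX25, a sorting nexin, read 9.01, 9.10, 8.69 and 8.65 with R1881, against 6.36, 7.07, 6.98 and 7.01 in steroid-deplete medium (2.01, adjusted p = 3.4e-06), while LINC00467, whose 4 probe sets alone lay in the cluster, read -0.53 (adjusted p = 0.0422). LINC00467 minus SNX25 changed by -2.54 (adjusted p = 4.8e-06), and the cluster's own value, not called, was -0.60. PHLDB2, which anchors microtubules at the cell cortex, read 4.71, 4.71, 4.92 and 4.93 with R1881, against 3.51, 3.02, 3.25 and 3.40 in steroid-deplete medium (1.52, adjusted p = 5.3e-06). PLCXD2, a phospholipase-like gene, read 5.41, 5.38, 5.21 and 5.10 with R1881 and 5.92, 5.81, 6.32 and 5.83 in steroid-deplete medium (-0.69, adjusted p = 4.5e-03). Both genes had probe sets in PLCXD2/PHLDB2, which as a cluster changed by -0.19. Of the 30 PHLDB2 probe sets only 5 lay in it, none of them called. PHLDB2 had a cluster of its own that was called (1.35). PER3 minus UTS2 changed by -2.06 (adjusted p = 1.1e-04).

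Genes called from their own probe sets were also listed by clusters that were not called. Of the 1731 uncalled members, 74 listed a gene that was called from its own probe sets, 64 distinct genes in all (28 higher, 36 lower), and in 29 of the 74 that gene had probe sets in the cluster. Over all measured genes 2.10% were called higher and 2.64% lower, and nothing particular to these clusters is read from the count. The widest gap, named after its values were seen like the others of this paragraph, was TPD52, a gene amplified in prostate cancer, listed with MRPS28. TPD52 rose by 3.01 (SE 0.20, adjusted p = 2.9e-07) with 14 of 17 probe sets called, only 1 of them in MRPS28/TPD52, and the cluster read -0.04. SCAP, the sterol-sensing escort of SREBP, rose by 1.43 with 21 of 30 probe sets called beside PTPN23/SCAP at 0.25, and FADS2, a fatty acid desaturase, rose by 1.32 beside FEN1/FADS2 at 0.42. HMGXB3 rose by 1.71 and PDIA5, a protein disulfide isomerase, by 1.56, under clusters at 0.56 and -0.06. MAPRE2, a microtubule end-binding protein, fell by 2.07, and SCAI, a repressor of cell invasion, fell by 1.88, under clusters at -0.27 and -0.16. TPD52 also had a cluster of its own that was called (2.85), as did SCAP (1.63), PDIA5 (1.55), MAPRE2 (-1.74) and SCAI (-1.46), and that of FADS2 read 0.99 and was not called. Among genes whose probe sets all lay in the uncalled cluster the gap varied. LMNB1, for lamin B1, fell by 1.29 in a cluster at -0.90, ACP3, for prostatic acid phosphatase, fell by 1.01 in one at -0.87, and ACAT2, for a cytosolic thiolase, rose by 1.05 in one at 0.89. CD302, a C-type lectin, fell by 1.15 in a cluster at -0.16, EFHC2 by 1.31 in one at -0.46 and ZNF204P by 1.16 in one at -0.26. Few of their probe sets were called on their own: 2 of 8 for CD302, 1 of 21 for EFHC2 and 1 of 12 for ZNF204P. The CD302 cluster also held 37 probe sets of LY75, and EFHC2 was dim (3.04 with R1881 and 4.36 in steroid-deplete medium).

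The motif count was also taken over the genes that carried calls. Among genes called higher in called clusters, 3 of the 21 with a promoter window (14.3%) held AGAACA or TGTTCT in at least 1 window, namely FKBP5, GALK2 and SLC39A7, and among genes called lower 1 of 17 (5.88%) did, GRAMD1C. Over all 27305 genes with a window the share was 17.5%, since many genes have several windows.

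Gene families that share sequence made up part of the members, and their calls are given beside the 1.94% of all clusters called higher and 2.04% called lower. Of 125 clusters with a zinc finger ZNF name, 1 was called higher (ZNF350/ZNF432, 1.17) and 1 lower (ERV3-1/ZNF117, -1.19), with a median of -0.06. ERV3-1/ZNF117 fell short of 2-fold without R1881 replicate 4 (-0.98) and with Iter-PLIER (-0.77). Ribosomal protein names stood in 18 clusters, 3 called higher and 1 lower (median -0.02), and the genes called in these 4 were NSMAF, ARFGAP3, DIPK1A and METTL8. RPL5, listed with ARFGAP3 and with DIPK1A, was measured and read 0.29 (adjusted p = 0.33), whereas RPS26, listed with NSMAF and METTL8, could not be measured and so could not be called. Of 4 histone clusters H2BC18/H3C13/H2BP1 was called lower (-1.03), though not without R1881 replicate 1 (-0.97) or steroid-deplete replicate 3 (-0.91). Of 3 UGT2B clusters 1 was called lower. The single UGT1A cluster, for enzymes that glucuronidate bilirubin and steroids and with 9 symbols that share most exons, read 0.27 (adjusted p = 0.018), but 1.47 and called with Iter-PLIER.

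No call was made among 5 protocadherin clusters, though 3 were lower at an adjusted p below 0.05 (median of all 5, -0.57): PCDHB16/PCDHB2 at -0.87, PCDHB5/PCDHB19P/PCDHB9/PCDHB14 at -0.85 and PCDHB2/PCDHB3 at -0.57. Protocadherins are adhesion proteins encoded in tandem arrays. Nor was any called among 18 clusters of olfactory receptors (median 0.10), 12 of CYP enzymes (0.03), 8 of tubulins (-0.13), 7 of cancer-testis antigens (-0.08), 5 of GST enzymes (0.003), 5 of HNRNP proteins (-0.09), 4 of HLA genes (-0.05), 3 of HSPA chaperones (-0.01), 3 of GOLGA genes (-0.16), 2 of AKR1C enzymes (0.07), 2 of NBPF genes (-0.005) and 1 of TBC1D3 (-0.54). AKR1C enzymes reduce steroids, and their clusters were dim in both treatments. TUBA4A/STK16 at -0.69 (adjusted p = 2.0e-05) and HLA-DMA/HLA-DMB at 0.70 (adjusted p = 3.0e-05) were the widest tubulin and HLA changes. No MT1 or MT2 metallothionein cluster carried several symbols.

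TSC2, NDUFV3 and ZNF121, whose mRNA isoforms the study examined, stood in members that were not called as whole clusters. NTHL1/TSC2 read -0.11 (adjusted p = 0.42), PKNOX1/NDUFV3 -0.04 (adjusted p = 0.81) and the 6-symbol zinc finger cluster that includes ZNF121 -0.06 (adjusted p = 0.80), the last 2 of which were above 0 after centring (0.06 and 0.05) and with Iter-PLIER (0.09 and 0.06). By number, NTHL1/TSC2 held single-symbol probe sets of NTHL1 and none of TSC2. PKNOX1/NDUFV3 held those of PKNOX1 and none of NDUFV3. The values of these clusters are therefore no reading of TSC2 or NDUFV3. From single-symbol probe sets TSC2, the tuberin tumour suppressor, read -0.09 over 44 probe sets, and NDUFV3, of respiratory complex I, read 0.07. The last 8 TSC2 probe sets by number changed by 0.39 to 1.04 each, with a lowest limma adjusted p of 0.019, none past the call. They were picked after their values were seen. By RT-PCR the paper reported a rise of the downstream end of TSC2 relative to its upstream end after androgen.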

How the data were processed

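RNA from 8 LNCaP samples (4 R1881, 4 steroid-deplete) was hybridised to Affymetrix Human Exon 1.0 ST Arrays. Per the labels and the methods, the authors made RMA values with quantile normalisation and deposited them on the log2 scale, at gene level for 16309 transcript clusters and at exon level for 620335 probe sets. The authors also deposited Iter-PLIER values of the same arrays as linear intensity, used here as an alternative after adding 16 and taking log2. Each array had 4 such sets of values, 32 in all. The submitters' processing notes name hg18, from which no position was taken; names and positions come from RefSeq GRCh38.p14. Arrays give no counts, so their number limits the precision.

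R1881 was compared with steroid-deplete by limma 3.58.1 (R 4.3.3, matrixStats 1.5.0), with Benjamini-Hochberg adjustment over all clusters, all probe sets, all 16201 genes with at least 4 single-symbol probe sets, or all 1043 pairs. A call needed an adjusted p below 0.005 and at least 2-fold. Of the probe sets, 257184 carry 1 symbol and 2758 several. Of 205638 probe sets checked, 99.5% were placed by number in a cluster of their own symbol. Only probe sets that fell in 1-symbol clusters, and whose gene names such a cluster, were checked. Placement in the members themselves was therefore not checked. Members and lists were chosen with earlier results of these data known. Named were the 10 highest and 10 lowest called clusters, the 8 called pairs with the widest difference, up to 3 clusters of each family list and clusters with a gene named in the study; other names were added after their values were seen. The fits were tested on simulated data. Alternatives were Iter-PLIER, the methods' t-test, centring, quantile normalisation, filters on dim values, another fold limit, other rules for gene values, a replicate block and leaving out arrays. The replicate numbers did not pair the arrays: deviations of arrays with the same number correlated at 0.07, 0.10, -0.10 and -0.06.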

Additional observations from a re-analysis of the deposited data

Results flagged for a closer look

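Of 142 groups of 4 arrays examined among the named clusters, 9 had 1 array standing away from the other 3 by more than Dixon's critical value for 4 samples, and chance gives about 1 such group in 20. R1881 replicate 4 was the array in 3 of them. It read 4.90 in GRAMD1C/CTDNEP1 (the other R1881 arrays 5.29 to 5.31), 5.08 in GSTA1/GSTA2 (4.74 to 4.79) and 8.65 in HSPA1B/HSPA1A (8.92 to 8.95). R1881 replicate 1 read 6.65 in H2BC18/H3C13/H2BP1 (6.86 to 6.89), and R1881 replicate 3 read 7.41 in the zinc finger cluster ZNF562/ZNF846/ZNF699/ZNF121/ZNF561/ZNF812P (6.87 to 6.94).

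Steroid-deplete replicate 2 stood away in another 3 groups, at 7.36 in the same zinc finger cluster (the other steroid-deplete arrays 6.98 to 7.01), 5.53 in PLCXD2/PHLDB2 (5.90 to 5.92) and 1.97 in AKR1C4/AKR1C3 (1.88 to 1.89). Steroid-deplete replicate 1 read 8.38 in PCDHB2/PCDHB3 (8.72 to 8.76). In GRAMD1C/CTDNEP1 the array that stood away was the one farthest from the steroid-deplete values, and that cluster was called with each array left out in turn.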

How the results depend on the processing

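The 31 higher and 26 lower clusters were counted again under each alternative. Iter-PLIER gave 40 higher and 82 lower, of which 30 and 25 were among the first, a filter on dim clusters 26 and 17, and a 1.5-fold limit 67 and 103. The methods' t-test gave 27 and 22, quantile normalisation 34 and 22, centring 37 and 20, and leaving out both arrays that stood apart 31 and 27. Without 1 array the counts were 28 to 33 higher and 23 to 32 lower. For genes, 49 higher and 54 lower became 37 and 34 with the mean of the probe sets and 31 and 35 with probe sets in the cluster alone, and without 1 array 43 to 53 and 47 to 62. For pairs, 52 became 45 to 51 without 1 array and 59 with exon-level Iter-PLIER. The cause of these shifts was not tested. The median change of all clusters was 0.10 with centring, -0.08 with Iter-PLIER and -0.003 otherwise. With a replicate block 31 and 26 clusters, 51 and 57 genes and 59 pairs were called, with every earlier call among them.

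No called cluster among those named by the set rules reversed its direction with Iter-PLIER, centring, a replicate block or 1 array left out. The direction of the other called clusters was not compared. Named clusters without a call that changed sign under some alternative had changes between -0.11 and 0.16 and were not called under it; after centring these were HSPA1B/HSPA1A (0.09), HSPA1A/HSPA1B (0.01), PKNOX1/NDUFV3 (0.06), HLA-DOB/TAP2 (0.03) and the cluster that includes ZNF121 (0.05). In 10 of the 57 called clusters the change fell short of 2-fold without 1 array, among them FAM177A1/PPP2R3C (0.89 without R1881 replicate 3), TBC1D2B/LOC646938 (-0.93 without R1881 replicate 4) and APOBEC3B/APOBEC3A/APOBEC3F (-0.95 without steroid-deplete replicate 2), all close to 2-fold at the outset. FBXO16/ZNF395 (0.98) was called after centring (1.08). With Iter-PLIER ERV3-1/ZNF117 was not called (-0.77), while VWA5A/OR10D1P (-1.02) and IFITM4P/HLA-F-AS1 (-1.14) were. The 8 widest pairs, and FAM216A with GPN3, were called under all 11 to 13 alternatives in which they could be fitted.

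Genes with fewer than 4 single-symbol probe sets were not resolved, positions are of a later build than the array's annotation, and dim clusters such as AKR1C4/AKR1C3 have low log2 levels (1.99 with R1881 and 1.91 in steroid-deplete medium), and no change was detected there. Cross-hybridisation between paralogues was not tested.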

Other observations

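Further called members were named after their values were seen. MRPS18A/RSPH9 rose by 1.39 (limma adjusted p = 7.0e-08), averaging 9.87 ± 0.09 with R1881 and 8.48 ± 0.15 in steroid-deplete medium (SD, n = 4 each). MRPS18A, of the mitochondrial ribosome, rose by 1.18 from its own probe sets and RSPH9, of ciliary radial spokes, read -0.02. ECI2/TEX56P rose by 1.21, and ECI2, an enzyme of fatty acid oxidation, by 1.45 on its own. SLC22A23/PSMG4 rose by 1.10, and PSMG4, a proteasome assembly chaperone, read -0.05 beside 1.16 for SLC22A23. Among the falls, NIPSNAP3A/NIPSNAP3B changed by -1.37, GALNT10/SAP30L-AS1, for an enzyme of O-linked glycosylation, by -1.10, and NEK6/LOC100129034, for a mitotic kinase, by -1.05.

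Pairs that changed unequally also included genes known from cell death and division. FAS, the death receptor, fell by 1.29 (limma adjusted p = 9.4e-04), with 1 of 10 probe sets called. Its own gene-level cluster read -0.89 and was not called. The neighbour STAMBPL1, a deubiquitinase that alone had probe sets in the shared cluster, read 0.30. The difference of changes was -1.59 (limma adjusted p = 2.6e-04). KIF20A, a mitotic kinesin, read -0.97 and CDC23, of the anaphase-promoting complex, 0.36, with a difference of changes of 1.33 (adjusted p = 4.2e-04). In SLF1/FASTKD1, whose genes lie on different chromosomes, FASTKD1 read -0.80 and SLF1 0.82, neither of them called, and the difference of changes was -1.62 (adjusted p = 6.3e-04). That difference was not called with Iter-PLIER or with the mean of the probe sets, and its smallest size over the alternatives was -0.93.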
